A study of Mus musculus with 9 samples.

Results

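The genes described here are 37 genes of the G1 to S transition and of DNA replication. Each was read from its brightest probe set (the group of array probes summarised as 1 value) among those that the platform annotation assigns to that single gene symbol. All 37 had such a probe set, out of 19938 genes measured by the same rule. By role they comprise 12 licensing genes, 7 genes that switch on the replicative helicase, 11 genes for the polymerases, sliding clamp, clamp loader and strand ligation, 4 genes of deoxynucleotide supply, and the 3 regulators Ccne1, Ccne2 and E2f1.

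The study used R1E cells, a line of mouse embryonic stem cells, cultured in knockout DMEM that held 15% foetal bovine serum and 1000 units/ml of leukaemia inhibitory factor (LIF), with no drug. Lentiviruses delivered 1 of 3 short hairpin RNAs: a control hairpin that targets luciferase (shLuc), or shApela_1 or shApela_2, both directed at Apela. There were 3 arrays in each group and 9 in all. Apela encodes a small secreted peptide, and the series title places its RNA in a feedback loop on p53-driven cell death. Every group carried a lentivirus, no untransduced cells are among the samples analysed here, and nothing in the labels ties the 3 repeats to separate cultures, so the p-values below rest on the spread among these samples alone, which may be technical. Neither the hairpin sequences nor the interval from transduction to harvest was given in the sources used here.

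Replication is prepared in G1, when the origin recognition complex, Cdc6 and Cdt1 load the ring of Mcm2 to Mcm7 onto origins, a step called licensing that geminin (Gmnn) blocks outside G1. At the start of S phase the kinase Cdc7 with its partner Dbf4, together with cyclin E kinase, brings in Cdc45 and the GINS complex, and the Mcm ring becomes an active helicase. Many of these genes are transcribed by E2F factors once the retinoblastoma protein is phosphorylated, and mouse embryonic stem cells are known for a short G1 and a large share of cells in S phase.

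Values are log2 expression levels, so a difference of 1 is a doubling of signal and 0.58 is 1.5-fold. All 37 genes lay above 7.06, the median of all probe sets, from a mean over the 9 arrays of 7.72 for Gmnn to 12.19 for Pcna, the sliding clamp. Levels of different probe sets are not on a common scale, so these figures rank no gene against another. The embryonic stem cell markers were present, since 10 of 10 lay above the median probe set, from Klf4 at 10.09 to Dppa5a at 12.82. Of the markers of other cells, 4 of 8 fibroblast feeder, 3 of 7 primitive endoderm, 4 of 7 trophectoderm, 0 of 4 mesoderm and 2 of 4 neuroectoderm genes lay above it, and 0 genes of these lists or of the stem cell list passed the limma test described below in any comparison (4, 2 and 0 had an unadjusted p under 0.05). The targeted gene Apela read 11.30 ± 0.10 (SD, n = 3) in shLuc, 9.70 ± 0.06 with shApela_1 and 9.72 ± 0.14 with shApela_2, differences of -1.60 and -1.58 (limma, adjusted p = 0.000197 and 0.000219). The third shApela_2 array stood apart from the rest, with a median of 7.12 and an interquartile range of 3.29. On the other 8 arrays these were 7.03 to 7.07 and 3.50 to 3.59. Counts of members lower or past the test are therefore also given without it. Counts in the other gene lists below include that array and were not taken without it.

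The promoters of the replication genes were searched for the short words that E2F factors are known to bind. RefSeq promoter windows of build GRCm38.p6, each 300 bases long from 250 before to 50 after a start site, were at hand for 31 of the 37 genes (37 windows). No window was used for Gmnn, Mcm4, Gins1, Gins2, Pole and Ccne2. The words were TTTCCCGC, TTTGGCGC, TTTCGCGC and TTTGCCGC on either strand. At least 1 of them stood in 12 of the 37 windows (32.4%), against 744 of 32851 windows in all (2.26%). Licensing genes held most of the matches, with 7 of 10 genes (Orc1, Cdc6, Cdt1, Mcm3, Mcm5, Mcm6 and Mcm7), followed by 4 of 10 in the polymerase group (Pola1, Pold1, Rfc3 and Lig1) and 1 of 5 helicase activation genes (Gins3). In the nucleotide supply group 0 of 4 genes and among the regulators 0 of 2 (Ccne1 and E2f1) held one of these exact words. This says only that these letters are not in these windows. Whether a window covers the main start site of its gene was not tested. The word CCAAT, bound by NF-Y, stood in 54.1% of the members' windows and in 37.4% of all. TTTGCCGC stood in 0 of the members' windows and in 0.441% of all windows. The members' windows had a median GC content of 60.0%, against 52.7% over all windows, and a match describes the sequence and is not shown to be a bound site. The windows of the genes on which the results below turn are printed 5′ to 3′ on the strand of the gene, with E2F words in capitals. Pola1 (chrX:93632106-93632405, minus strand), Gins3 (chr8:95633309-95633608, plus strand) and Cdc6 (chr11:98907901-98908200, plus strand) each hold 1 word, which lies on the opposite strand and so is printed as its reverse complement. Pola2 (chr19:5964157-5964456, minus strand) and Tk1 (chr11:117825965-117826264, minus strand) hold none. Whether the brighter Tk1 probe set, used below, reads the gene copy at this window was not tested. Mcm6 (chr1:128359656-128359955, minus strand) was added after the sequences were seen because it holds 3 words, of which the first overlaps a match on the other strand within 1 run of capitals.
Pola1: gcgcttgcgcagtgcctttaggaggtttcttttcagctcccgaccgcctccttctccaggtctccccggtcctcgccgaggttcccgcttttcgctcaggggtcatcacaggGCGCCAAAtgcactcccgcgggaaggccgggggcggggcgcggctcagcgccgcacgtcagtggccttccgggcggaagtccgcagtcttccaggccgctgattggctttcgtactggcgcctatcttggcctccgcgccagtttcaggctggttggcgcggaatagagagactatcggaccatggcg
Gins3: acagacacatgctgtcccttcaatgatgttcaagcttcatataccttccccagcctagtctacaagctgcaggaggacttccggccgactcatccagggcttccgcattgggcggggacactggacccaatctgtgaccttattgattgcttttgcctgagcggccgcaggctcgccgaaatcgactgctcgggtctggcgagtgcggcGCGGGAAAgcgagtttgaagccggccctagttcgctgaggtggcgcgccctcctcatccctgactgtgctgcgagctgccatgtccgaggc
Cdc6: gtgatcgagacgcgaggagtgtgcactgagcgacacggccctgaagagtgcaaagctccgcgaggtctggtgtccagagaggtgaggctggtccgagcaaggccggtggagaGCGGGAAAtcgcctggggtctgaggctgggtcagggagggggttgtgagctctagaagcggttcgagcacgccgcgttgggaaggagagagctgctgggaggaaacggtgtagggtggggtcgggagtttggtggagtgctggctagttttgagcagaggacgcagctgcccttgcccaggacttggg
Pola2: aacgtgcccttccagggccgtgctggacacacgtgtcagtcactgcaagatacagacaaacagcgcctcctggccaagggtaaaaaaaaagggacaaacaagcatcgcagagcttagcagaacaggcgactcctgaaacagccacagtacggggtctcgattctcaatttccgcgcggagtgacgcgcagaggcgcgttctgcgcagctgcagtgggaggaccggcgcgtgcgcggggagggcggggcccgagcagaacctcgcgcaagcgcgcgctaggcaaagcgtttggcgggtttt
Tk1: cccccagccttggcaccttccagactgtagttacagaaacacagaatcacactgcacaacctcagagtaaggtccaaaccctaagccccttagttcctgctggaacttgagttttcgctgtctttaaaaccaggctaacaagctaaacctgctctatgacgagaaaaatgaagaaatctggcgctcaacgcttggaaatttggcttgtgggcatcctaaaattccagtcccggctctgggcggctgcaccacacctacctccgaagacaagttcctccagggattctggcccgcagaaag
Mcm6: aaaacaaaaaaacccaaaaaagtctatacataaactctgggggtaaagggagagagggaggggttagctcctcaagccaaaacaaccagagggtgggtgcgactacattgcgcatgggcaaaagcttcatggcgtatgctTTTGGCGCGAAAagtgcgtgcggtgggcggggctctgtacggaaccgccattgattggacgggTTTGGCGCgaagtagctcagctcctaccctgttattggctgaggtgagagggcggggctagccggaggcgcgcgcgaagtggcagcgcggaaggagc

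**Figure D1:**
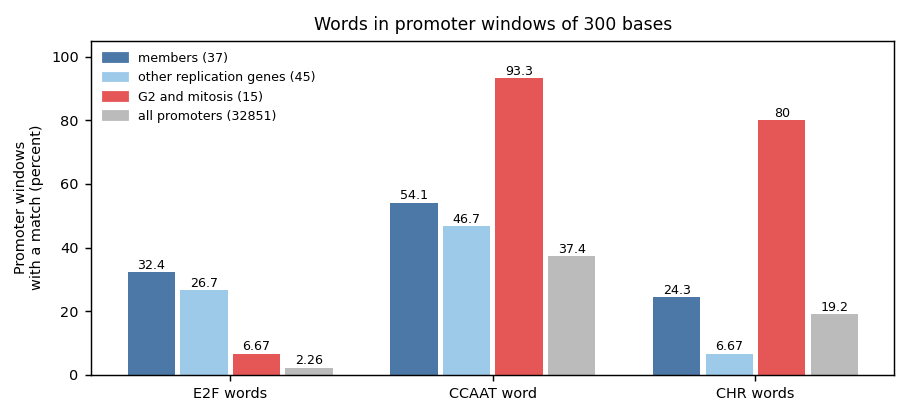
Share of promoter windows of 300 bases, in percent on the vertical axis, that hold at least 1 E2F word, the word CCAAT, or 1 of the words TTTGAA and TTCGAA (labelled CHR), on either strand; bars stand for the replication genes (37 windows), other replication genes (45), genes of G2 and mitosis (15) and all promoters (32851). E2F words stood in 32.4% of the replication genes' windows against 2.26% of all, whereas CHR words stood in 24.3% of them, near the 19.2% of all promoters, against 80.0% for the genes of G2 and mitosis.

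With either hairpin against Apela, 0 of the 37 replication genes passed the test. The test was limma's moderated test on all 19938 genes in 1 fit of the 9 arrays, two-sided, with Benjamini-Hochberg adjustment over all genes and a threshold of 0.05. It called 0.336% of all genes for shApela_1 against shLuc, 0.015% for shApela_2 against shLuc and 0.948% for shApela_2 against shApela_1, and 0 of the 37 members in each. At an unadjusted p under 0.05 the members numbered 3 (8.11%) against 7.69% of all genes, 2 (5.41%) against 5.77%, and 10 (27.0%) against 12.9%. The last of these shares, between the hairpins, was above that of all genes, and the first 2 were close to it. All 37 members lay above the median probe set, so brighter genes are the closer background. With genes below that median left out of the fit, the shares were 8.11% against 10.7%, 5.41% against 5.9% and 24.3% against 17.5%. The gap between the hairpins was thus smaller in that fit. The main fit took the arrays as unpaired, and whether they are paired by replicate number is not settled. With a block for the replicate number, 2 members passed between the hairpins (Pola2 and Tk1, 5.41%), against 3.28% of all genes. At an unadjusted p under 0.05 there were then 15 members between the hairpins (40.5%), against 18.5% of all genes. That share was 35.1% against 16.9% without the third arrays of all groups, and 21.6% against 16.2% without the first shApela_2 array. The 3 comparisons share arrays in pairs, so their values stand side by side and are not independent of one another. In bulk RNA, fewer cells in S phase and less of a transcript in each cell cannot be told apart.

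The differences were small, and the interval of each gene reflects only the spread among these arrays, which may be technical. The intervals are not adjusted for the number of genes and do not cover the choice of scaling or arrays. Over the alternative treatments of the values, the Ccne2 difference for shApela_2 against shLuc ran from -0.41 to -0.23. The 95% interval of the difference lay inside 1.5-fold in either direction for all 37 genes for each hairpin against shLuc, and for 36 of 37 between the hairpins, the exception being Ccne2. For shApela_1 the outermost bounds were -0.36 (Pola1) and 0.39 (Cdc7), and for shApela_2 they were -0.57 (Ccne2) and 0.17 (Ccne1). The replication genes varied little between repeats, with a median residual SD of 0.057 against 0.080 over all genes, and 25 of 37 lay below that all-gene median. The steadiest was Mcm6 (0.022) and the most variable was Cdc7 (0.154).

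**Figure D2:**
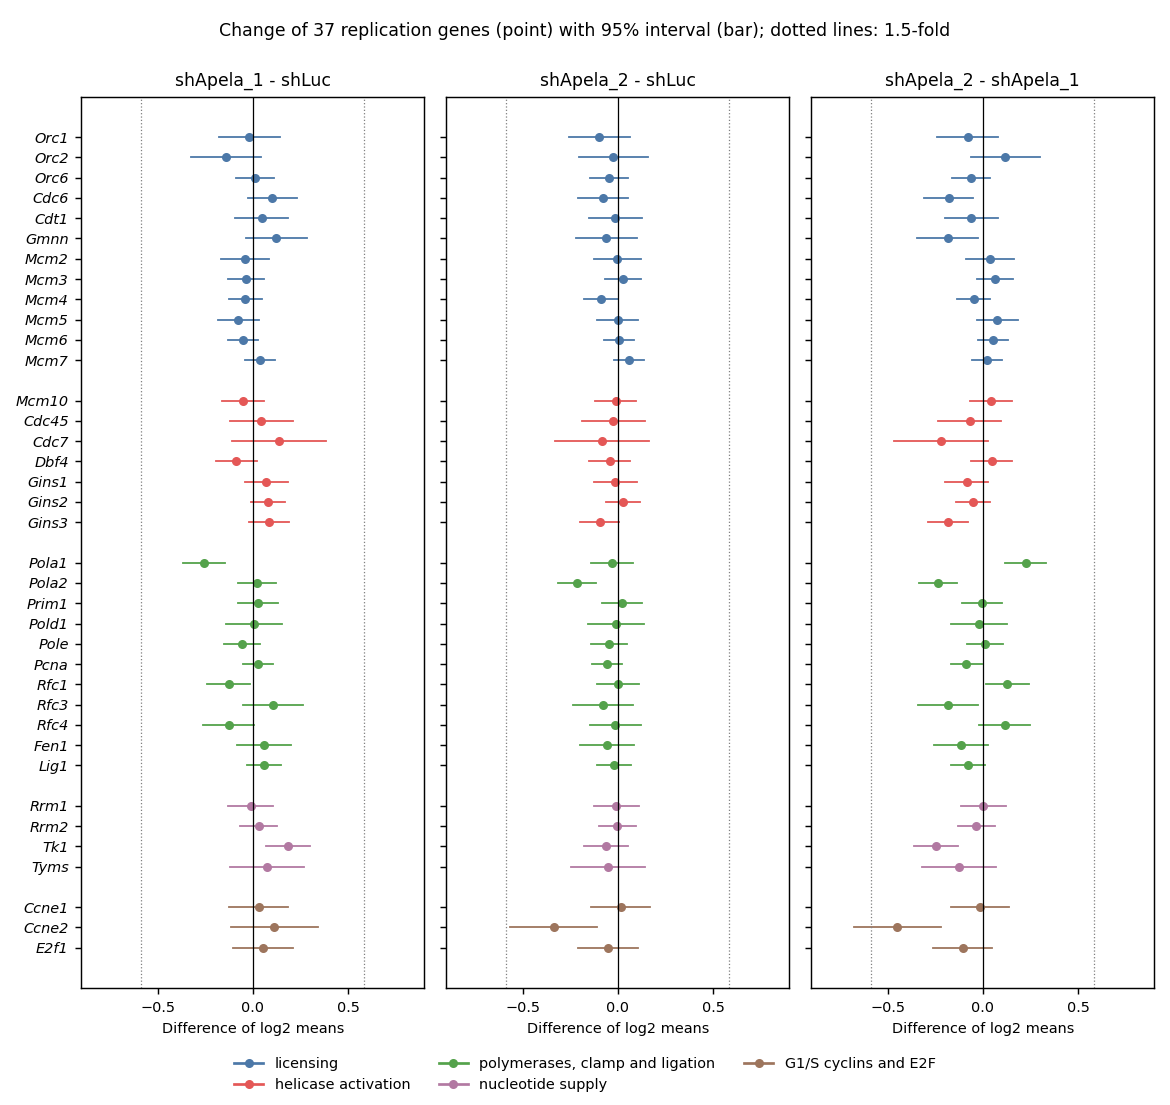
Difference of log2 means (horizontal axis) for each of the 37 genes, grouped and coloured by role, in the 3 comparisons; points are differences, bars their 95% intervals from limma, and dotted lines mark 1.5-fold. The intervals exclude 0 for 3, 2 and 10 genes from left to right, and only that of Ccne2 between the hairpins crosses a dotted line; Pola1 (-0.26) stands out for shApela_1 and Pola2 (-0.22) and Ccne2 (-0.34) for shApela_2.

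Some genes separated the groups on every array, in both directions. For shApela_1, all arrays lay above all shLuc arrays for 5 genes (13.5%; 8.05% of all genes), namely Cdc6, Gmnn, Gins3, Lig1 and Tk1. They lay below for 4 (10.8%; 5.61% of all genes), namely Mcm6, Dbf4, Pola1 and Pole. For shApela_2 against shLuc, 1 gene lay above (Mcm7, 2.7%; 5.68% of all genes) and 4 lay below (Mcm4, Pola2, Pcna and Ccne2, 10.8%; 4.65% of all genes). Between the hairpins, shApela_2 lay above shApela_1 for 3 genes (Mcm6, Pola1 and Rfc1, 8.11%; 7.49% of all genes) and below it for 9 (24.3%; 10.1% of all genes). Those 9 were Cdc6, Gmnn, Gins3, Pola2, Pcna, Rfc3, Fen1, Tk1 and Ccne2. These shares were not taken among genes at or above the median probe set, the closer background. Of those genes 61.9% were lower with shApela_2 against either other group, beside 42.4% (shLuc) and 42.1% (shApela_1) of all genes.

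The licensing genes showed differences centred near 0, with medians of -0.03 for shApela_1, -0.02 for shApela_2 and -0.01 between the hairpins. The subunits of the Mcm ring lay close to shLuc: across Mcm2, Mcm3, Mcm4, Mcm5, Mcm6 and Mcm7 the differences ran from -0.08 (Mcm5) to 0.04 (Mcm7) for shApela_1 and from -0.09 (Mcm4) to 0.06 (Mcm7) for shApela_2. For shApela_1, Mcm2 and Mcm3 each differed by -0.04 and Mcm6 by -0.05. Mcm4 read 10.96, 11.01 and 11.02 in shLuc, 10.93, 10.96 and 10.98 with shApela_1, and 10.95, 10.91 and 10.87 with shApela_2. Every shApela_2 array of Mcm4 was below every shLuc array, while shApela_1 overlapped both groups. Its difference for shApela_2 was -0.09 (SE 0.04, limma adjusted p = 0.68).

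Cdc6, the ATPase that helps load the Mcm ring, read 8.89, 9.01 and 9.02 in shLuc, 9.07, 9.04 and 9.12 with shApela_1, and 8.80, 8.92 and 8.98 with shApela_2. The shApela_1 arrays were the highest 3 of the 9, and the shApela_2 arrays overlapped shLuc. The difference was 0.10 (SE 0.06) for shApela_1 and -0.08 for shApela_2, and -0.18 between the hairpins (limma, adjusted p = 0.835, 0.686 and 0.221). Gmnn, the inhibitor of Cdt1, had the same order of groups, at 7.70 ± 0.09 in shLuc, 7.82 ± 0.04 with shApela_1 and 7.64 ± 0.13 with shApela_2 (SD, n = 3). Cdt1 itself differed from shLuc by 0.05 and -0.01. Among the origin recognition subunits, Orc1 differed by -0.02 and -0.10, Orc2 by -0.14 and -0.02, and Orc6 by 0.01 and -0.05 (shApela_1, then shApela_2), with overlapping arrays for all 3.

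Of the 7 helicase activation genes, 2 were lower for shApela_1 (Mcm10, -0.05, and Dbf4, -0.09), and 6 were lower for shApela_2, with medians of 0.07 and -0.02. The GINS subunits, which join the Mcm ring at the fork, showed the smallest p-values in this role. Gins3 read 8.75, 8.79 and 8.80 in shLuc, 8.83, 8.86 and 8.91 with shApela_1, and 8.77, 8.63 and 8.66 with shApela_2. All shApela_1 arrays of Gins3 were above all others, and 1 shApela_2 array lay within the shLuc range. The difference between the hairpins was -0.18 (SE 0.05, limma adjusted p = 0.131). Gins2 read 9.26, 9.25 and 9.29 in shLuc, 9.33, 9.29 and 9.40 with shApela_1, and 9.30, 9.28 and 9.29 with shApela_2. Its values with shApela_1 reached above the others but touched the shLuc range, a difference of 0.08 (SE 0.04, limma adjusted p = 0.762). Gins1 differed from shLuc by 0.07 and -0.01. Cdc45, which completes the helicase, differed by 0.04 and -0.02, and the kinase gene Cdc7 by 0.14 and -0.08 with the widest spread of all 37 genes.

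The polymerase group held the smallest p-values, and they fell on the subunits of polymerase alpha, the enzyme that with primase starts each new strand. Pola1, its catalytic subunit, read 10.04, 10.14 and 10.09 in shLuc, 9.78, 9.82 and 9.91 with shApela_1, and 10.10, 10.07 and 10.01 with shApela_2. All 3 shApela_1 arrays were below all 6 others, and shApela_2 overlapped shLuc. The difference for shApela_1 was -0.26 (SE 0.05, 95% interval -0.36 to -0.15), 0.837 times the shLuc signal, with a limma p of 0.000518 that ranked 122 among 19938 genes and an adjusted p of 0.0847. Against shApela_1, shApela_2 was higher by 0.22 (0.12 to 0.33; limma adjusted p = 0.0811), and against shLuc it differed by -0.03 (adjusted p = 0.822). Pola1 passed the threshold for shApela_1 after a second quantile normalization (adjusted p = 0.0231) and with array weights (0.0071), within a range of 0.0071 to 0.363 over all alternatives. Between the hairpins it passed after that normalization (0.0114), with array weights (0.00271) and without the third arrays of all groups (0.0416), within 0.00271 to 0.284.

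Pola2, the accessory subunit of the same enzyme, showed another pattern. It read 10.43, 10.50 and 10.50 in shLuc, 10.45, 10.51 and 10.53 with shApela_1, and 10.30, 10.29 and 10.20 with shApela_2. All 3 shApela_2 arrays were below all 6 others, and shApela_1 overlapped shLuc. The difference for shApela_2 was -0.22 (SE 0.04, 95% interval -0.32 to -0.12), 0.861 times shLuc, with a limma p of 0.000912, rank 41 of 19938 and an adjusted p of 0.44. Between the hairpins it was -0.24 (-0.34 to -0.14), with a limma adjusted p of 0.0506, just short of the threshold. With a block for the replicate number this difference passed (adjusted p = 0.0432), as it did with dim genes left out (0.0446), a second quantile normalization (0.0219) and array weights (0.00583), within a range of 0.00583 to 0.193. The lowest arrays were thus those of shApela_1 for Pola1 and those of shApela_2 for Pola2, and the differences between the hairpins had opposite signs. The primase subunit Prim1 differed from shLuc by 0.03 and 0.02.

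The other polymerases and fork proteins lay close to shLuc. Pold1 and Pole, the catalytic subunits of the lagging and leading strand polymerases, differed by 0.01 and -0.06 for shApela_1 and by -0.01 and -0.05 for shApela_2. Pcna read 12.20, 12.19 and 12.21 in shLuc, 12.23, 12.20 and 12.26 with shApela_1, and 12.15, 12.11 and 12.16 with shApela_2. The shApela_2 arrays were below all others by a small margin, with a difference of -0.06 (SE 0.03) from shLuc and a limma adjusted p of 0.68. A second Pcna probe set gave -0.05, and whether 1 of these probe sets lies at another copy of the gene was not tested. Among clamp loader subunits, Rfc1 and Rfc4 each differed by -0.13 for shApela_1 and by 0.00 and -0.01 for shApela_2, whereas Rfc3 differed by 0.10 and -0.08. Fen1, the flap nuclease, differed by 0.06 and -0.06, and Lig1, the ligase that joins lagging strand fragments, by 0.06 and -0.02.

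In the nucleotide supply group the largest difference in each comparison was that of thymidine kinase (Tk1), which salvages thymidine. Tk1 read 9.20, 9.14 and 9.30 in shLuc, 9.38, 9.39 and 9.42 with shApela_1, and 9.13, 9.11 and 9.22 with shApela_2. The shApela_1 arrays were above all others, and shApela_2 overlapped shLuc. The difference was 0.18 (SE 0.05, 95% interval 0.07 to 0.30) for shApela_1 and -0.06 for shApela_2 (limma, adjusted p = 0.263 and 0.696). Between the hairpins it was -0.25 (-0.36 to -0.13), with a limma adjusted p of 0.0712. That difference passed with a block for the replicate number (adjusted p = 0.0254), with array weights (0.00158), without the third shApela_2 array (0.0456) and without the third arrays of all groups (0.0252), in a range of 0.00158 to 0.244. A second, dimmer Tk1 probe set gave 0.11, -0.11 and -0.21 in the 3 comparisons (limma adjusted p = 0.919, 0.68 and 0.219). The annotation gives both probe sets the same symbol, and whether 1 of them lies at another copy of the gene was not tested, so the Tk1 values hold for the brighter probe set alone. Of the ribonucleotide reductase subunits, Rrm1 differed by -0.01 for both hairpins and Rrm2 by 0.03 for shApela_1, with 11.16 ± 0.06 in shLuc and 11.16 ± 0.02 with shApela_2 (SD, n = 3). Thymidylate synthase (Tyms) differed by 0.08 and -0.05 and ranged over the repeats of shLuc alone from 10.55 to 10.84.

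Among the G1/S regulators the largest differences were those of Ccne2, 1 of the cyclin E genes that drive entry into S phase. Ccne2 read 8.51, 8.63 and 8.58 in shLuc, 8.60, 8.60 and 8.86 with shApela_1, and 8.38, 8.31 and 8.03 with shApela_2. All shApela_2 arrays were below all others, with the lowest value on the array that stood apart. The difference for shApela_2 was -0.34 (SE 0.10, 95% interval -0.57 to -0.11), 0.791 times shLuc and the largest of the 37 genes in that comparison, with a limma adjusted p of 0.68. Without the third shApela_2 array it was -0.23 (adjusted p = 0.91). Between the hairpins the difference was -0.45 (-0.68 to -0.22; limma adjusted p = 0.0957), and without the third arrays of all groups it was -0.26 (adjusted p = 0.0675), in a range of adjusted p from 0.0123 to 0.252. Ccne1, the other cyclin E gene, read 11.32 ± 0.11 in shLuc, 11.35 ± 0.08 with shApela_1 and 11.33 ± 0.07 with shApela_2 (SD, n = 3). E2f1, the transcription factor of many replication genes, differed from shLuc by 0.05 and -0.05 with overlapping arrays.

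**Figure D3:**
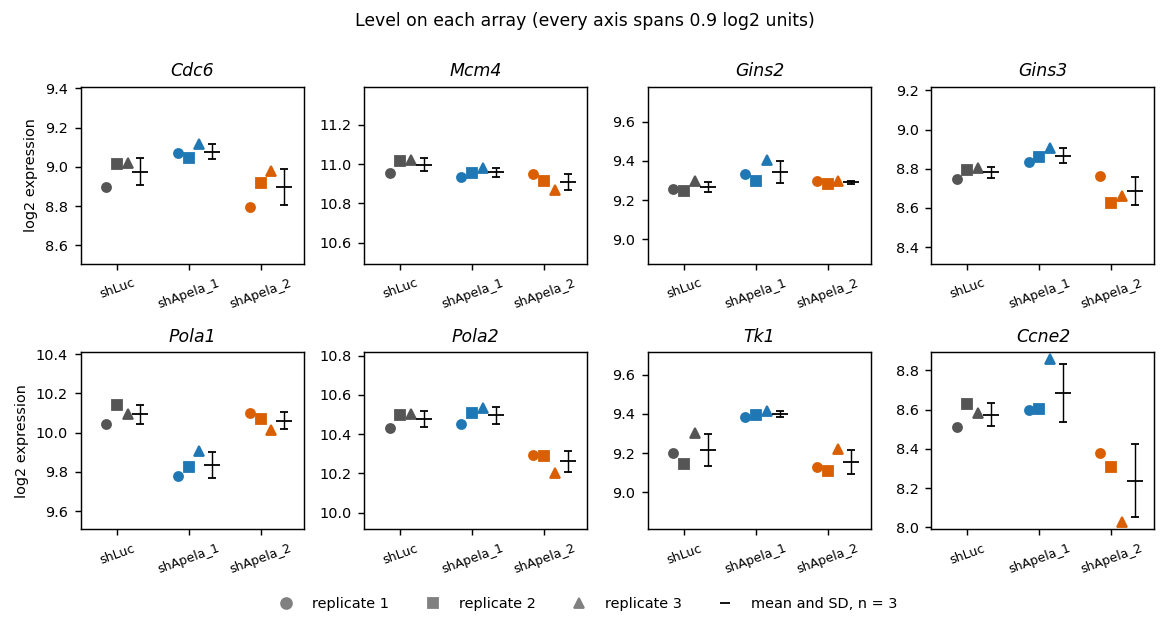
Log2 level on each array (vertical axis, spanning 0.9 log2 units in every panel) for 8 genes in the 3 groups; symbols mark the replicate numbers, and bars give mean and SD of 3 arrays. Pola1 is lowest with shApela_1 (9.84 ± 0.07), Pola2 is lowest with shApela_2 (10.26 ± 0.05), Tk1 is highest with shApela_1 (9.40 ± 0.02), and Ccne2 with shApela_2 has its lowest value, 8.03, on the third array.

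Most members lay slightly below shLuc with shApela_2, and this count changed with the scaling and with the third arrays. As deposited, 30 of 37 were lower (81.1%, median -0.02), against 42.4% of all genes and 61.9% of the 10650 genes at or above the median probe set. Quantile normalization of the values once more gave 17 of 37 (45.9%, median 0.01), and centring of array medians gave 36 of 37 (97.3%, median -0.05), with 47.7% and 73.7% of the brighter genes. Without the third shApela_2 array 25 of 37 were lower (67.6%; 51.2% of the brighter genes), and without the third arrays of all groups 16 of 37 (43.2%; 46.5%). For shApela_1 against shLuc, 14 of 37 were lower (37.8%, median 0.03) against 43.3% of the brighter genes, and the count ran from 13 to 17 over the alternatives. The median of 0.03 became 0.0092 without the first shLuc array and 0.00737 without the third shApela_1 array. Between the hairpins 24 of 37 were lower in shApela_2 (64.9%, median -0.05) against 61.9% of the brighter genes, with a range of 22 to 27.

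**Figure D4:**
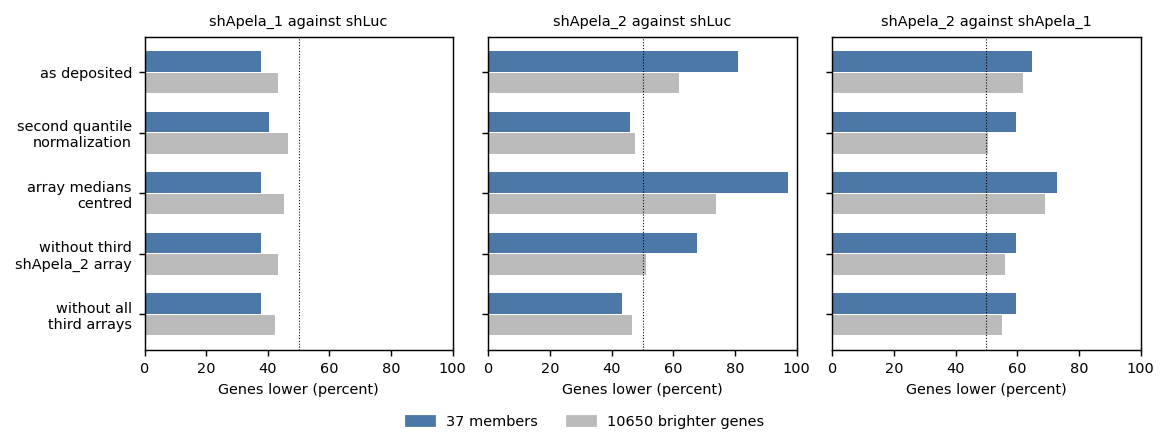
Percent of genes with a negative difference (horizontal axis) in the 3 comparisons under 5 treatments of the values; blue bars are the 37 replication genes, grey bars the 10650 genes at or above the median probe set, and the dotted line marks 50%. For shApela_2 against shLuc the blue bar runs from 43.2% to 97.3%, and the grey bar moves with it from 46.5% to 73.7%.

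The repeats of a group also differed together. The third array was the highest of its group for 26 of 37 members in shLuc (70.3%) and for 30 of 37 in shApela_1 (81.1%), against 46.1% and 45.7% of the brighter genes. The first shLuc array was the lowest of its group for 21 of 37. The median over the members, relative to the shLuc mean, ran from -0.04 to 0.03 within shLuc, from -0.01 to 0.06 within shApela_1 and from -0.04 to -0.02 within shApela_2. In this median the arrays of each hairpin group overlapped those of shLuc. On the third shApela_2 array the helicase activation genes had a median of -0.12 and the G1/S regulators of -0.18, while the licensing genes had 0.02 and all brighter genes -0.05.

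**Figure D5:**
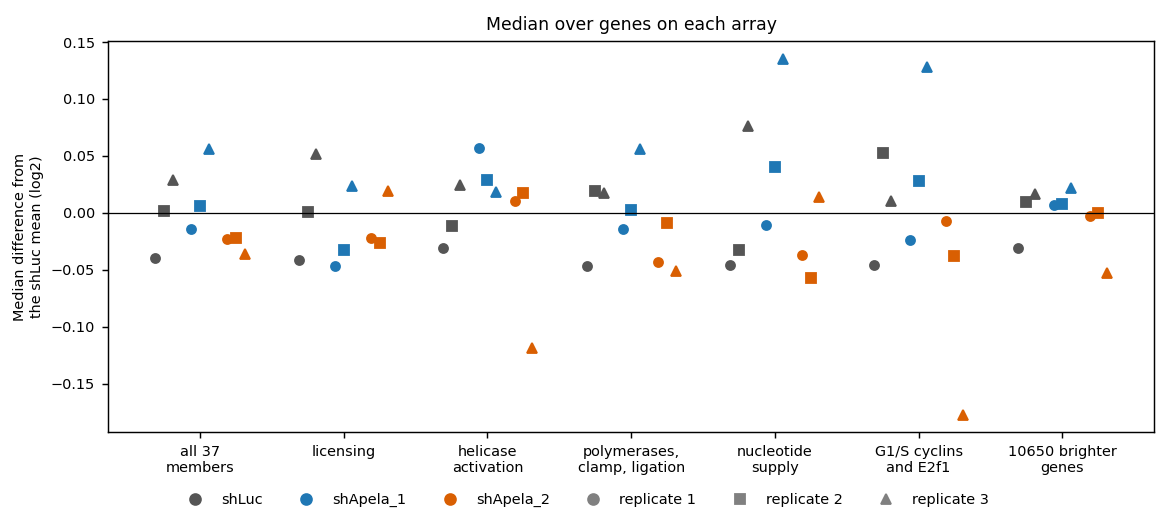
Median over genes of the difference from the shLuc mean (log2, vertical axis) on each of the 9 arrays, for all 37 genes, the 5 roles and the 10650 brighter genes; colours mark groups and symbols replicate numbers. For all members the shLuc arrays span -0.04 to 0.03 and the other arrays -0.04 to 0.06, and the third shApela_2 array is the lowest for helicase activation (-0.12) and for the G1/S regulators (-0.18).

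The list of other replication genes held 48 measured genes. Of these, 22, 36 and 39 were lower in the 3 comparisons (45.8%, 75.0% and 81.2%, medians 0.00, -0.04 and -0.06). Among the brighter genes 43.3%, 61.9% and 61.9% were lower. By limma 0, 0 and 1 of the 48 passed, against 0.336%, 0.015% and 0.948% of all genes. At an unadjusted p under 0.05 there were 3, 5 and 10 (6.25%, 10.4% and 20.8%), against 7.69%, 5.77% and 12.9% of all genes. The 1 that passed was Dna2, a nuclease and helicase of lagging strand processing, lower with shApela_2 than with shApela_1 by 0.23 (adjusted p = 0.0456), at 9.83 ± 0.03 in shLuc, 9.92 ± 0.04 with shApela_1 and 9.69 ± 0.05 with shApela_2 (SD, n = 3). Its call ended without any 1 of the 9 arrays (adjusted p from 0.0527 to 0.153). The smallest p against shLuc was that of Orc5, an origin recognition subunit, for shApela_1 (-0.19, limma adjusted p = 0.352) and of Rpa1, which coats single-stranded DNA, for shApela_2 (-0.17, adjusted p = 0.68). Orc5 passed for shApela_1 with array weights (adjusted p = 0.0453, in a range of 0.0453 to 0.893). Between the hairpins it differed by 0.21 (limma adjusted p = 0.161) and passed with array weights (0.0137) and with a block for the replicate number (0.0398), in a range of 0.0137 to 0.421. E2F words stood in 12 of 45 windows of these genes (26.7%). Of 19 genes of G2 and mitosis, 14, 14 and 6 were lower (73.7%, 73.7% and 31.6%, medians -0.03, -0.01 and 0.02), beside the same shares of brighter genes. By limma 0 of the 19 passed in any comparison, with 3, 0 and 3 at an unadjusted p under 0.05 (15.8%, 0.0% and 15.8%). The smallest p among them was that of Cenpf, a kinetochore protein of late S phase to mitosis, for shApela_1 (-0.25, adjusted p = 0.18) and between the hairpins (0.23, adjusted p = 0.134), and of Bub1b, a spindle checkpoint kinase, for shApela_2 (0.05, adjusted p = 0.705). With array weights Cenpf passed for shApela_1 (adjusted p = 0.0378, in a range of 0.0378 to 0.609) and between the hairpins (0.00923), where it also passed after a second quantile normalization (0.0406, in a range of 0.00923 to 0.386).

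Markers of other cells were compared in the same way, and none passed the test, as given above. For shApela_1 against shLuc, 6 of 7 trophectoderm, 6 of 7 primitive endoderm, 5 of 8 feeder, 3 of 4 mesoderm and 2 of 4 neuroectoderm markers were lower. For shApela_2 against shLuc, 8 of 8 feeder, 5 of 7 primitive endoderm, 3 of 7 trophectoderm, 3 of 4 mesoderm and 4 of 4 neuroectoderm markers were higher. Between the hairpins, 7 of 8 feeder, 7 of 7 primitive endoderm and 7 of 7 trophectoderm markers were higher with shApela_2. So were 3 of 4 mesoderm and 4 of 4 neuroectoderm markers. Of all genes 45.5%, 42.4% and 42.1% were lower in the 3 comparisons, against 43.3%, 61.9% and 61.9% of the brighter genes. Dimmer genes were thus more often higher with shApela_2 than brighter ones, and many of these markers lay below the median probe set. Without the third shApela_2 array, 46.8% of all genes were lower for shApela_2 against shLuc and 50.5% between the hairpins. The marker counts were not taken without that array. The trophectoderm list had a median difference of -0.13 for shApela_1 and 0.12 between the hairpins, with array medians of 7.76 to 8.03 in shLuc, 7.64 to 7.77 with shApela_1 and 7.67 to 7.76 with shApela_2. The part of these cells in the differences of the replication genes was not tested.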

How the data were processed

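Per the submitters' processing notes, the authors used Partek 6.6 and RMA, which corrects background, quantile-normalizes arrays and merges the probes of a probe set. They deposited 1 log2 value per probe set and array (base 2 as judged from the values). The notes give no settings. Scanner intensities were not used, and precision is limited by the number of arrays.

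Of 28853 probe sets, 21775 had 1 gene symbol, 1578 several and 5500 none in GEO's platform annotation. Of the named ones 21684 matched a gene in RefSeq's table for GRCm38.p6, with 0 symbols changed. The brightest probe set stood for each of 19938 genes (998 genes, Pcna and Tk1 among the members, had more than 1). Cdkn1a, Ccnb1 and T were not analysed here. Values missing numbered 0, and pairs of arrays held equal values for 1.19% to 7.54% of genes.

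Groups came from sample titles. All genes were fitted with limma 3.58.1 in R 4.3.3 (lmFit, eBayes, two-sided, 6 residual and 2.72 prior degrees of freedom), with Benjamini-Hochberg adjustment over all genes of a comparison, and every adjusted p in the text comes from limma. The fit was tested on simulated data. Levels are means ± SD of 3 arrays, and differences are between log2 means, with the standard error (SE) of limma.

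Values on every array were given for the member with the smallest p in each role and comparison, and of the other lists each gene past the threshold or with the smallest p was named; Pcna, Gmnn and Ccne1 were given more fully after their values were seen. The members, lists, promoter words and alternatives were chosen with earlier results of these data known.

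Pairing by replicate number was checked through the correlation of same-numbered arrays' deviations from group means. It was 0.44, 0.40 and 0.68 for shLuc with shApela_1 and 0.18, 0.21 and 0.21 for the hairpins, above the limit of 0.1 each time. For shLuc with shApela_2 it was -0.01, 0.67 and 0.47, below that limit for replicate 1. Repeats shared by shLuc with shApela_1 and by the hairpins would be shared by shLuc with shApela_2 too. The check therefore does not settle whether the arrays are paired, and the labels have no word on it. The main fit took them as unpaired, with the replicate block as an alternative. Alternatives were a trended robust prior, leaving out dim genes, a second quantile normalization, centred array medians, array weights, the replicate block, only the compared arrays, all or averaged probe sets, and leaving out each array in turn. Leaving out the third arrays of all groups was chosen after seeing the data.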

Additional observations from a re-analysis of the deposited data

Results flagged for a closer look

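Dna2, from the list of other replication genes, differed between the hairpins by the limma test of that difference, at -0.23 for shApela_2 minus shApela_1 (adjusted p = 0.0456). Its difference from shLuc was 0.09 with shApela_1 and -0.14 with shApela_2, neither of which passed the test, and the lowest shApela_1 array lay above the highest shApela_2 array. Over the alternatives the adjusted p of Dna2 between the hairpins ran from 0.00535 to 0.154.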

How the results depend on the processing

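Members past the test numbered 0 in all 3 comparisons as reported. For shApela_1 against shLuc they numbered 1 after a second quantile normalization (Pola1, 2.7% of members against 0.497% of all genes). With array weights they numbered 2 (Pola1 and Tk1, limma adjusted p = 0.0071 and 0.0203, 5.41% against 3.45%). For shApela_2 against shLuc they stayed at 0 under every alternative run. Between the hairpins they numbered 1 with dim genes left out (Pola2), 2 after a second quantile normalization (Pola1, adjusted p = 0.0114, and Pola2), 7 with array weights (Cdc6, Gins3, Pola1, Pola2, Rfc1, Tk1 and Ccne2; 18.9% of members against 7.25% of all genes), 2 with the replicate block (Pola2 and Tk1; 5.41% against 3.28%) and 2 without the third arrays of all groups (Pola1 and Tk1). With dim genes left out, the share called between the hairpins was 2.7% of members, near the 2.1% of all genes tested. It was 5.41% against 1.27% after the second quantile normalization and 5.41% against 2.18% without the third arrays. Leaving out 1 array at a time gave 0 to 1 between the hairpins, the 1 being Tk1 without the third shApela_2 array (2.7% against 1.11%). The block changed no other member call. Array weights gave that array 0.10 and the others 0.52 to 2.54. The median difference of the members moved to 0.00718 for shApela_2 against shLuc after a second quantile normalization, and between the hairpins to -0.0204 after that normalization and to -0.0225 without the third arrays of all groups. Over all genes, calls ran from 3 to 688 for shApela_1 (67 as reported), from 2 to 23 for shApela_2 (3) and from 19 to 1446 between the hairpins (189), with the most under array weights in each. No value past the threshold changed direction. The cause of these moves was not tested. Among the members the SE of a difference ran from 0.03 (Mcm6) to 0.11 (Cdc7), and signal over background could not be judged without scanner values.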

Other observations

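The regulators that gate entry into S phase were measured for 25 further genes, of which 10, 19 and 19 were lower in shApela_1 against shLuc, shApela_2 against shLuc and shApela_2 against shApela_1 (medians 0.02, -0.05 and -0.08). Among the brighter genes 43.3%, 61.9% and 61.9% were lower in the same 3 comparisons. By limma 0 of the 25 passed in any comparison, with 4, 3 and 7 of the 25 at an unadjusted p under 0.05. The share of all genes at that p was 7.69%, 5.77% and 12.9%. E2f2, an activator of replication genes, had the smallest p for shApela_1, at 0.29 above shLuc (adjusted p = 0.0847), and it passed without the third shApela_2 array (0.0394) and with array weights (0.0114), in a range of 0.0114 to 0.332. E2f3, another activator, had the smallest p for shApela_2, at -0.35 from shLuc (limma adjusted p = 0.63), and between the hairpins, at -0.37 (adjusted p = 0.0901), where it passed with array weights (0.0168, in a range of 0.0168 to 0.225). E2f2 differed between the hairpins by -0.19 (limma adjusted p = 0.172) and passed there with array weights (0.00888, in a range of 0.00888 to 0.386). For E2f2 the shApela_1 arrays lay above those of both other groups, and for E2f3 the shApela_2 arrays lay below them. Rb1, the retinoblastoma protein that holds E2F factors in check, was named after its values were seen: its difference was -0.48 for shApela_1 and -0.15 for shApela_2 (limma adjusted p = 0.313 and 0.73). E2F words stood in 8 of 28 promoter windows of these genes (28.6%), against 2.26% of all windows.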
